A study of Mus musculus with 18 samples.

Results

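The low block of chromosome 14 is taken as the 28.8 Mb between the first and last gene of a list. Most transcripts in it were less abundant in iEZR_CA than in WT mouse embryonic stem cells. Described here are 60 of its genes, out of 53801 genes in the count table. They were chosen by a fixed list of names, on GRCm38 chromosome 14 between 50807841 (the start of Parp2) and 79635196 (the end of Sugt1), and the list was drawn up from the ratio of iEZR_CA to WT in these same libraries. That ratio is therefore given for the members as a description, with no test. The change on exit within each line, and the difference in that change between the lines, were tested. The latter is made from the same ratios that the choice used, so its counts are descriptions beside their p-values. All 60 members were found in the table and all 60 passed the filter on low counts, which left 18469 genes.

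WT cells were the parental E14 line, without the transgene and without doxycycline. iEZR_CA cells were E14 cells that carry, on a PiggyBac transposon, a doxycycline-inducible constitutively active form of ezrin, a membrane-cortex linker that ties filamentous actin to the cell surface, and they received doxycycline for about 16 h before exit. Transgene, line and drug therefore varied together and cannot be told apart, and nothing in the sources says whether the iEZR_CA line is 1 clone. Each line was sampled as ESC (0 h, in 2i and LIF), T24 (24 h in N2B27) and T48 (48 h in N2B27), on gelatin, with 3 libraries per group and 18 in all. The study's methods describe the 3 libraries of a group as biological replicates.

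Mouse embryonic stem cells held in 2i and LIF stay in the naive state, and withdrawal of these factors into N2B27 lets them exit towards a post-implantation epiblast fate. Chromosome 14 is an autosome, and the count of a gene sums the RNA made from both of its copies. The genes of the interval do not belong to a single pathway. They include DNA repair enzymes, chromatin regulators, RNA-modifying enzymes, proteasome subunits, nuclear transport receptors, mitochondrial proteins and matrix proteases, and many of their products work in complexes whose other subunits are encoded on other chromosomes.

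The libraries held 10940752 to 33276622 gene counts, with a median of 23096248. Ezr itself had 24410 to 25360 normalized counts in the iEZR_CA ESC libraries and 11470 to 12030 in the WT ESC libraries. The summed level of 5 pluripotency markers was 79670 to 81050 in iEZR_CA ESCs and 89980 to 91770 in WT ESCs, so both lines carried the markers of their label. The sum of 6 primitive endoderm markers was 732 to 790 in iEZR_CA ESCs and 223 to 255 in WT ESCs. The higher sum came from Dab2, at a mean of 632 against 45.3, while Gata4 (17.4 against 97.6), Sox7 (1.30 against 7.97) and Sox17 (19.1 against 25.3) were lower, Pdgfra was at 30.2 against 31.4 and Gata6 at 61.5 against 32.4. The sum of 3 fibroblast markers was 349 to 395 in WT T48 libraries and at most 65.4 in every other library. Of 3 trophoblast markers the sum was 122 to 264 over all libraries. These sums moved with line or stage, and their part in the results was not tested. In RNA from whole cultures, fewer cells of a type and less RNA per cell cannot be told apart.

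The promoters of 5 members are shown because they stand for the patterns described further on. Osgep and Apex1 are a head-to-head pair at the near end of the interval, Tpt1 stayed close to a ratio of 0.5 at every stage, Hnrnpc had the highest ratio of the members in ESCs and Sall2 the lowest at T24. The windows are from RefSeq on GRCm38.p6, the same assembly as the count table, and run 5′ to 3′ on the strand of the gene from 250 bases before to 50 bases after a transcript start. Capitals mark matches to 3 motifs searched on both strands: the TATA box (TATAAA), the CCAAT box (CCAAT) and the GC box (GGGCGG).
Osgep, chr14:50924844-50925143, minus strand: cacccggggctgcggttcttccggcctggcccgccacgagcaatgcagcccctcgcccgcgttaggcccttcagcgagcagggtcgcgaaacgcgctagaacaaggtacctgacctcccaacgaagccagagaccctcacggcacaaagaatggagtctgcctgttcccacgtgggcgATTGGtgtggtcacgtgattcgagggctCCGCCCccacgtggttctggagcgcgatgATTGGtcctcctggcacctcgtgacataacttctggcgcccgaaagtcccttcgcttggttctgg
Apex1, chr14:50924699-50924998, plus strand: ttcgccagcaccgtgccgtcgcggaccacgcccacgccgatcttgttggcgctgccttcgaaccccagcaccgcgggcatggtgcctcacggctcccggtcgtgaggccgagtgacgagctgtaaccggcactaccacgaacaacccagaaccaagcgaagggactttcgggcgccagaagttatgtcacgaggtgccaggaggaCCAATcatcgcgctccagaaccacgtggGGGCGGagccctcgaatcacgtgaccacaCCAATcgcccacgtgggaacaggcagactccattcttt
Hnrnpc, chr14:52103972-52104271, minus strand: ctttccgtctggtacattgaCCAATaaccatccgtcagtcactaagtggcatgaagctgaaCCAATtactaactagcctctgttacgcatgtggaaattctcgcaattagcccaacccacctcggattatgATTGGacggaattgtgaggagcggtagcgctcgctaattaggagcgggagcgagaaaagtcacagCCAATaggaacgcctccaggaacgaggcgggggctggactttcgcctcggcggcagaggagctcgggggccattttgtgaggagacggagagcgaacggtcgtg
Sall2, chr14:52328621-52328920, minus strand: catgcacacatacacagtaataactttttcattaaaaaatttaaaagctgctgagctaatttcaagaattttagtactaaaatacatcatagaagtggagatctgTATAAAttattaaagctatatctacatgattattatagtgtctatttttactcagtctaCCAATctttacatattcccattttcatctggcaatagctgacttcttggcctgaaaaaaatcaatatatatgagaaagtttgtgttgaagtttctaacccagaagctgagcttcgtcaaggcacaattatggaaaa
Tpt1, chr14:75845006-75845305, plus strand: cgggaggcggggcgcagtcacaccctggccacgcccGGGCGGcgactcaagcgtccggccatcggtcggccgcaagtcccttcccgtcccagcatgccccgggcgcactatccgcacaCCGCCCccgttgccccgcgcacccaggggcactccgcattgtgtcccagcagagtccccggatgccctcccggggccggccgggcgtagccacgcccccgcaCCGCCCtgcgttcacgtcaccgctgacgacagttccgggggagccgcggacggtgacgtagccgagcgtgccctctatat

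The windows of Osgep and Apex1 share 155 bases on opposite strands, including both of their CCAAT boxes and their GC box. The Hnrnpc window held 4 CCAAT boxes and 22 CpG dinucleotides, the Tpt1 window 3 GC boxes and 40 CpG dinucleotides, and the Sall2 window 1 TATA box and 1 CpG dinucleotide. A window within 500 bases of the annotated start was found for 41 members. Their median of 22 CpG dinucleotides per window compared with 13 over all 16774 windows. A GC box was present in 58.5% against 46.6%, a CCAAT box in 43.9% against 38.4% and a TATA box in 7.3% against 11.8%. The 16774 windows were not limited to genes that passed the filter on low counts, as all members did. The sets are therefore unlike, and nothing is read from the contrast. Of the 14 members with a window that lay within 0.4 to 0.6 at all 3 stages, 10 held a GC box and none a TATA box. A match is a match of letters and no evidence of binding.

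The members' median ratio of iEZR_CA to WT was 0.504 in ESCs, 0.477 at T24 and 0.497 at T48, on the scale of fitted counts. No member had a ratio above 1 at any stage. Ratios between 0.4 and 0.6 are called near 0.5 here: 39 of the 60 members were near 0.5 in ESCs, 31 at T24 and 35 at T48. Across all genes with a mean of at least 50 normalized counts, 5.03%, 4.71% and 5.06% had a ratio in that band at the 3 stages. Below the band were 10, 14 and 12 members, between 0.6 and 0.75 were 10, 12 and 10, and above 0.75 were 1, 3 and 3. In ESCs and at T24, 59 members had every iEZR_CA library below every WT library, and at T48 all 60 did. Among all genes tested such a separation was seen in 29.1%, 31.9% and 32.4%, and since the members were chosen on the ratio nothing is read from the contrast between these shares. The single member without separation at the first 2 stages was Loxl2, a lysyl oxidase that crosslinks collagen, which had fewer than 13 normalized counts in each of those libraries.

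**Figure D1:**
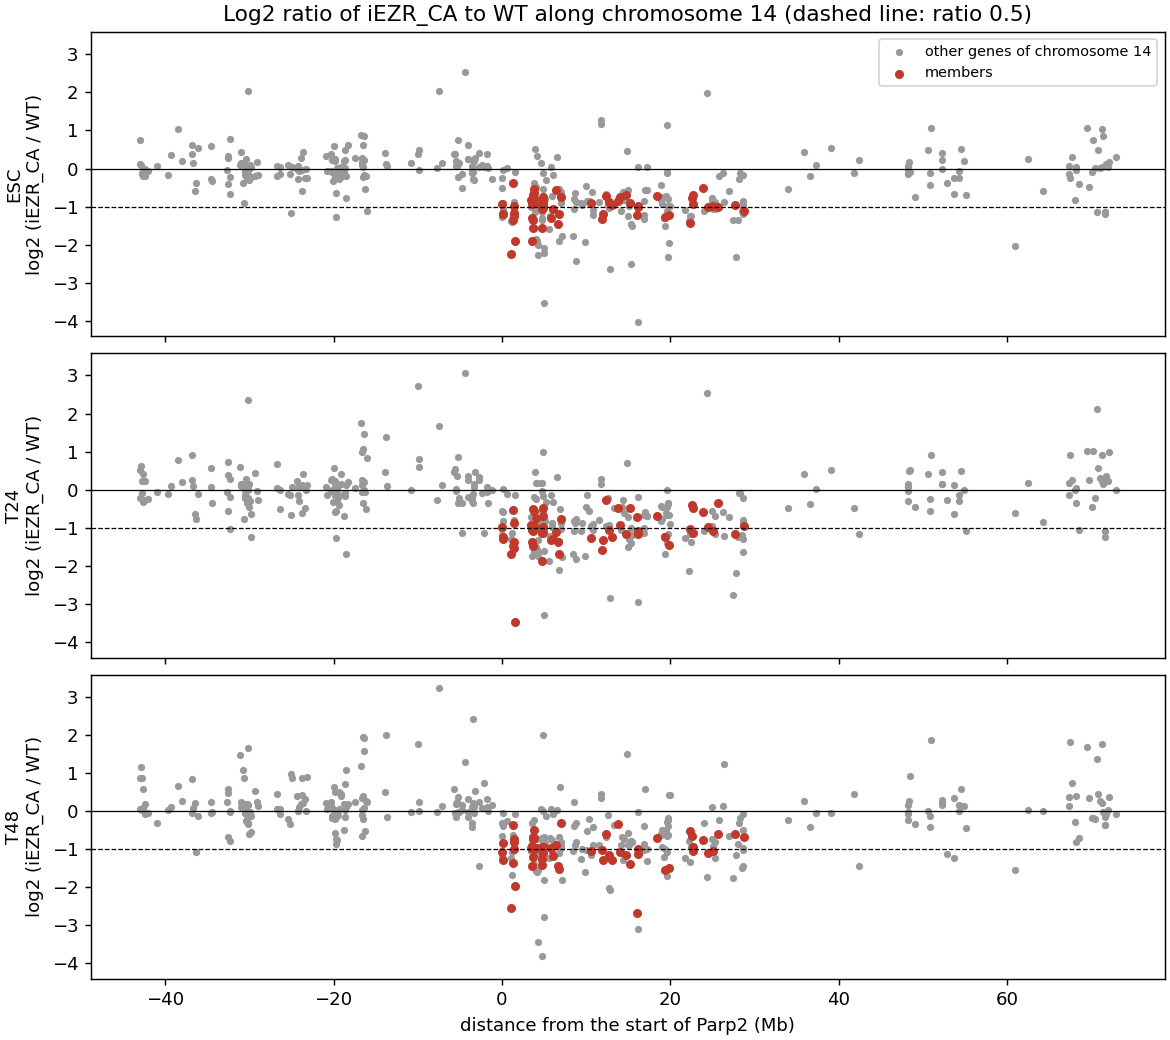
Log2 ratio of iEZR_CA to WT (y axis) for chromosome 14 genes with a mean of at least 50 normalized counts, against distance in Mb from the start of Parp2 (x axis), at ESC, T24 and T48. Red points are members, grey points other genes, the solid line is a ratio of 1 and the dashed line 0.5. Points gather around the dashed line over the 28.8 Mb spanned by the list. On either side most gather around the solid line, with medians of 1.014 and 0.996 in ESCs. Ttc5, just before Parp2, was also low, at 0.417 in ESCs.

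The low ratio was shared by the neighbours of the members. In the same interval, 146 genes that are not members had a mean of at least 50 normalized counts, and their median ratios were 0.531, 0.555 and 0.565. On the same chromosome before the interval, 164 genes had medians of 1.014, 0.999 and 1.069, and after it 58 genes had medians of 0.996, 1.037 and 1.002. On all other chromosomes, 12375 genes had medians of 0.993, 1.006 and 1.019. Of the autosomes, chromosome 8 had the highest medians, at 1.138, 1.179 and 1.147. In windows of 5 Mb across the genome, the 6 lowest medians in ESCs were the 6 windows that cover this interval, from 0.465 to 0.559. The next lowest was a window on chromosome X at 0.813. The windows include the members, and members and interval were chosen on this ratio, so the ranking is a description and no support.

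At the near end the ratio changed within about a megabase. Armh4, 1.13 Mb before Parp2, had ratios of 0.833, 0.989 and 1.107. Ttc5, 0.042 Mb before the start of Parp2 and outside the list, had ratios of 0.417, 0.436 and 0.443, and Ccnb1ip1 next to it had 0.707, 0.492 and 0.806. Tep1, a telomerase-associated protein gene just inside, had 0.847, 0.677 and 0.638. Among members, Parp2, a poly(ADP-ribose) polymerase of DNA repair, had 0.524, 0.510 and 0.473, and Osgep, the catalytic subunit of the KEOPS complex that modifies tRNA, had 0.434, 0.425 and 0.412. At the far end, Sugt1, a cochaperone, had 0.458, 0.515 and 0.624. The next gene beyond it with at least 50 normalized counts was Gm7004, 5.12 Mb further on, at 0.686, 0.712 and 0.846, and then Diaph3, a formin, at 1.36, 1.34 and 1.21.

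A minority of the interval's genes escaped the low ratio. Of the 146 neighbours, 19 had a ratio above 0.75 at all 3 stages, and 13 of these were annotated as pseudogenes. Of all 14 pseudogenes among the neighbours, 13 were above 0.75 throughout, with median ratios of 0.957, 0.932 and 0.948. Of the 129 protein-coding neighbours 6 were above 0.75 throughout, and the medians were 0.526, 0.542 and 0.548. Parp4, a PARP family protein of vault particles, had ratios of 1.022, 0.901 and 1.031, and the transcription factor gene Elf1, which lies just before Sugt1, had 0.887, 0.855 and 0.947. These genes were chosen after their values were seen. Many pseudogenes are near-identical to an expressed gene elsewhere, so that reads may be shared between them, and this was not tested.

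**Figure D2:**
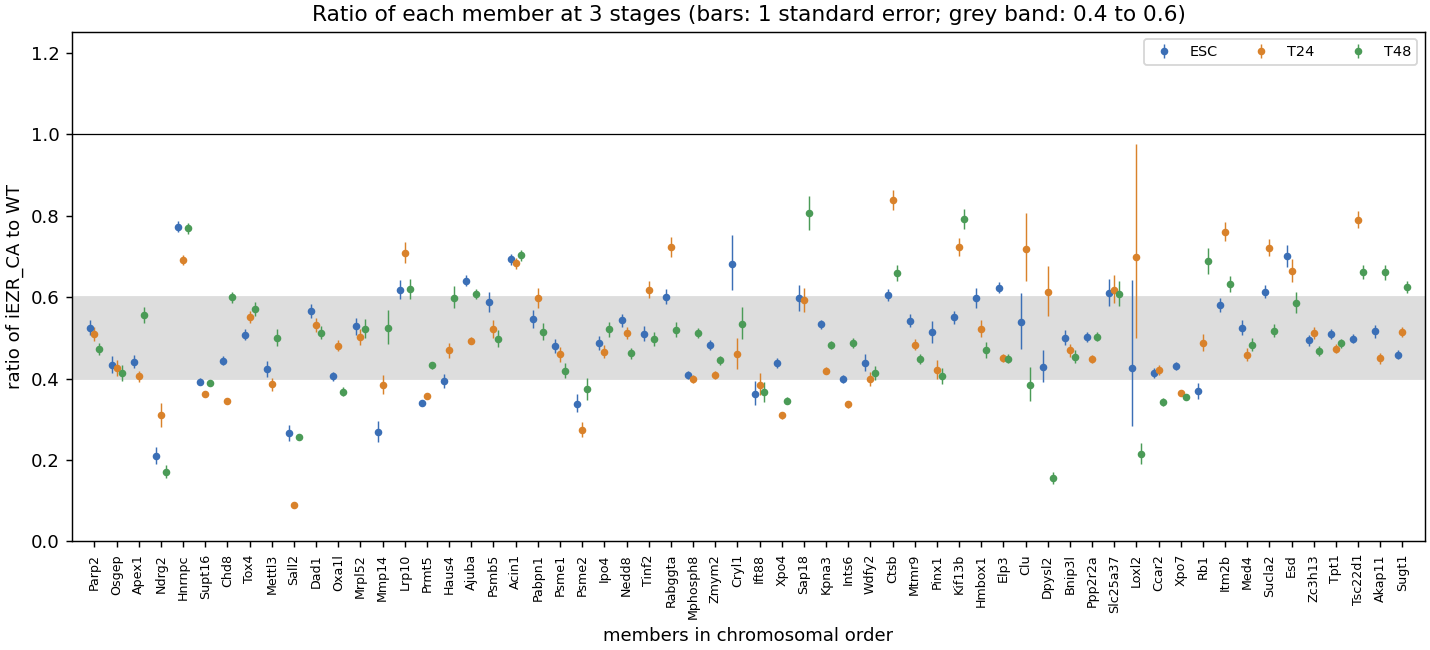
Ratio of iEZR_CA to WT (y axis, linear) for each of the 60 members in chromosomal order (x axis) at ESC, T24 and T48, with bars of 1 standard error and a grey band from 0.4 to 0.6. Most points lie in or beside the band, all lie below 1, and Sall2 at T24 is the lowest at 0.09.

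Members differed in the number of stages at which they were near 0.5. In all, 21 members were near 0.5 at all 3 stages, 13 at 2, 16 at 1 and 10 at none. The median standard error of a log2 ratio was 0.048 in ESCs, 0.048 at T24 and 0.047 at T48, while the SD of the log2 ratios across members was 0.35, 0.49 and 0.46. The members thus differed from one another by more than the error of a single ratio. Across the 60 members the log2 ratios in ESCs and at T24 had a Pearson r of 0.69 and a Spearman rho of 0.69, with 0.58 and 0.53 between ESCs and T48 and 0.43 and 0.51 between T24 and T48. Different libraries enter each stage, but the lines and the genes are the same. Position along the interval had a Pearson r of 0.20, 0.30 and 0.08 with the log2 ratio at the 3 stages, and exon length -0.08, -0.10 and 0.11.

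Tpt1 (ENSMUSG00000060126, chromosome 14, 75845093 to 75848525), which encodes the abundant growth-related protein TCTP, was 1 of the steadiest members. It had 4404, 4379 and 4519 normalized counts in WT ESCs and 2365, 2260 and 2185 in iEZR_CA ESCs. At T48 it had 6080, 6248 and 5861 in WT and 2935, 2965 and 2878 in iEZR_CA cells. The ratio was 0.510, 0.473 and 0.486 at the 3 stages, although its level rose by T48 in both lines. Its annotation holds 6 pseudogenes named after it, so reads may have been shared.

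Bnip3l, a mitochondrial receptor for mitophagy, and Ppp2r2a, a regulatory subunit of protein phosphatase 2A, were the members nearest to 0.5 in ESCs besides Tsc22d1. Bnip3l had 1296, 1299 and 1302 normalized counts in WT ESCs and 710, 611 and 647 in iEZR_CA ESCs, with ratios of 0.50, 0.469 and 0.454 at the 3 stages. Ppp2r2a had 3087, 3042 and 3083 in WT and 1574, 1513 and 1565 in iEZR_CA ESCs, with ratios of 0.502, 0.447 and 0.503. Within a line their libraries differed far less than the lines did.

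The head-to-head pair at the near end had like ratios in ESCs and at T24. Osgep had 629, 649 and 689 normalized counts in WT ESCs and 240, 313 and 303 in iEZR_CA ESCs. Apex1, the main endonuclease of base excision repair, had 1170, 1195 and 1221 in WT and 551, 551 and 476 in iEZR_CA ESCs, with ratios of 0.441, 0.406 and 0.557. The exons of Apex1 overlap those of Pip4p1 on the opposite strand over 61.7% of their length. The strand setting of the counting is not given in the sources used here, so reads of such pairs could not be told apart.

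Grouped by role, the ratios were as follows, with no test between roles. All 5 genes of DNA repair and telomeres (Parp2, Apex1, Tinf2, Pinx1, Hmbox1) were near 0.5 in ESCs and at T48, and 4 were at T24. Of the 4 nuclear transport genes, the importins Ipo4 and Kpna3 and the exportins Xpo4 and Xpo7, all were near 0.5 in ESCs and 2 at each later stage, and the median ratio of the group was 0.463, 0.392 and 0.419. The 12 chromatin and transcription genes had a median of 0.428, 0.414 and 0.497, and the 8 genes of RNA processing and tRNA modification 0.520, 0.481 and 0.494. The 9 genes of the secretory pathway, membrane, lysosome and matrix had 4 members near 0.5 in ESCs, 1 at T24 and 3 at T48, with medians of 0.566, 0.709 and 0.520. The 5 mitochondrial genes (medians 0.528, 0.502 and 0.518), the 5 proteasome, ubiquitin-like and chaperone genes (0.480, 0.512 and 0.462) and the 12 genes of cytoskeleton, cilia, signalling and metabolism (0.512, 0.471 and 0.519) lay between.

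Members below the band at every stage were 5. Supt16, a subunit of the histone chaperone FACT, had 9953, 10050 and 9302 normalized counts in WT ESCs and 3864, 3823 and 3886 in iEZR_CA ESCs, and its ratios were 0.393, 0.362 and 0.388. Ift88, a carrier of intraflagellar transport in cilia, had 0.363, 0.385 and 0.367, and the interferon-responsive proteasome activator subunit Psme2 had 0.338, 0.275 and 0.373. The other two were Ndrg2, at 0.210, 0.310 and 0.171, and Sall2. Prmt5, the main symmetric arginine methyltransferase, was below the band in ESCs (0.340) and at T24 (0.357) and near 0.5 at T48 (0.432). Its libraries had 5526, 5533 and 5522 normalized counts in WT ESCs and 1934, 1802 and 1956 in iEZR_CA ESCs.

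Among the other chromatin and transcription genes, some stayed in the band and some dipped below it. Chd8, a chromatin remodeller of the CHD family, had ratios of 0.443, 0.345 and 0.60, with the low point at T24, when WT cells reached 7005 ± 337 normalized counts (SD, n = 3) against 3715 ± 34.3 in WT ESCs. Zmym2, a zinc finger corepressor, had 0.482, 0.408 and 0.444, and Mphosph8, the chromodomain subunit of HUSH, 0.409, 0.399 and 0.511. Tox4, an HMG-box protein, stayed near 0.5 throughout at 0.507, 0.551 and 0.570, as did Med4 of the Mediator complex at 0.525, 0.458 and 0.483. Ccar2, a regulator of SIRT1, dropped out of the band at T48 only (0.413, 0.420 and 0.343). T24 was the lowest of the 3 stages for Chd8, Zmym2, Mphosph8 and Med4, and the highest for Ccar2.

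Among the RNA-modifying and RNA-processing genes, the m6A methyltransferase Mettl3 had ratios of 0.423, 0.386 and 0.50 and its cofactor Zc3h13 0.494, 0.512 and 0.468. Mettl3 shares 18.4% of its exon bases with Tox4, whose counts were 282% of its own, on the opposite strand. Pabpn1, the nuclear poly(A)-binding protein, had 0.546, 0.597 and 0.515. Zc3h13 and Pabpn1 were thus near 0.5 at all 3 stages, and Mettl3 at 2.

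Some members of the proteasome, the ER and the mitochondrion stayed near 0.5 and others did not. Psmb5, a catalytic subunit of the core proteasome, had ratios of 0.587, 0.521 and 0.497, Nedd8, a ubiquitin-like modifier, 0.543, 0.512 and 0.462, and Psme1 0.480, 0.459 and 0.419. Dad1, a subunit of the oligosaccharyltransferase, had 0.566, 0.531 and 0.512, and the mitochondrial ribosomal protein gene Mrpl52 0.528, 0.502 and 0.522. These 5 were near 0.5 at every stage, while Psme2 and Sucla2 of the same roles were not. Oxa1l, the inner membrane insertase, was so at the first 2 stages (0.405, 0.481 and 0.368), and Slc25a37, the mitochondrial iron importer, lay just above the band at all 3 (0.611, 0.618 and 0.608).

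The remaining members described here belong to membranes, signalling and metabolism. Lrp10, a receptor of the LDL receptor family, had 0.618, 0.709 and 0.620, and Rabggta, a subunit of the Rab geranylgeranyl transferase, 0.601, 0.723 and 0.520. Clu, the secreted chaperone clusterin, had 0.538, 0.719 and 0.383, from at most 108 normalized counts in any library. Lrp10, Rabggta and Clu, like Ctsb and Itm2b, had their highest ratio at T24. Akap11, an anchoring protein of protein kinase A, had 0.515, 0.449 and 0.661, and the esterase gene Esd 0.701, 0.665 and 0.585. Wdfy2, an endosomal protein, had 0.438, 0.398 and 0.413, and the phosphatase-like Mtmr9 0.542, 0.483 and 0.448. The largest of a member's 3 ratios was a median of 1.27 times its smallest, and for 10 members it was over 1.5 times.

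Escape above 0.75 was seen in 6 members, each at only some stages. Hnrnpc (ENSMUSG00000060373, chromosome 14, 52073377 to 52104028), a nuclear RNA-binding protein and per kilobase of exon the most abundant member, had 12150, 12010 and 12450 normalized counts in WT ESCs and 9205, 9653 and 9585 in iEZR_CA ESCs, and its ratios were 0.773, 0.692 and 0.769. At T24, Ctsb reached 0.838, Tsc22d1 0.790 and Itm2b, a transmembrane protein of the secretory pathway, 0.761. At T48, Sap18, a subunit of the Sin3 corepressor and of the ASAP splicing complex, reached 0.806 and the kinesin Kif13b 0.791. Just below 0.75 at T24 were Kif13b (0.723), Rabggta (0.723) and Sucla2 (0.721). Acin1, a nuclear protein of the same ASAP complex, was above the band at all 3 stages (0.693, 0.683 and 0.703). Ctsb shares 12.8% of its exon bases with Fdft1, and Sap18 shares 78 bases with Ska3, both on the opposite strand.

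The members' partners on other chromosomes did not share the low ratio. Of 63 partners of 17 complexes or families, 61 lie on other chromosomes. Their median ratio was 0.998 in ESCs, 0.984 at T24 and 1.002 at T48, beside 0.994, 0.999 and 1 over all genes tested, and none was near 0.5. Between 0.75 and the inverse of 0.75 were 58, 54 and 56 of the 61. By edgeR's quasi-likelihood test 21, 17 and 19 partners were higher in iEZR_CA cells and 18, 23 and 17 lower. Over all genes tested, 26.4%, 30.8% and 31% were higher and 28.1%, 30.1% and 30.1% lower. Chromosome 8 as a whole had median ratios of 1.138, 1.179 and 1.147. Its partners Nae1, Terf2, Terf2ip, Acd, Haus8 and Ints10 were among those called higher in ESCs, while Rbl2, also there, was not called. The part of the chromosome 8 shift in these calls was not tested. With libraries scaled to spike-in RNA, 6, 8 and 12 partners were higher and 2, 6 and 4 lower. The share of all genes called with that scaling was not counted, so the lower numbers are not read as a trait of the partners.

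Ssrp1, the other subunit of FACT beside Supt16, had 9910 ± 273 normalized counts in WT ESCs and 10950 ± 140 in iEZR_CA ESCs (SD, n = 3), a ratio of 1.10. Wdr77, which binds Prmt5 in the methylosome, had 2193 ± 33.7 and 2709 ± 18.7, a ratio of 1.23. Mettl14, the partner of the RNA methyltransferase Mettl3, had a ratio of 0.968 where Mettl3 had 0.423, and Parp1 had 1.003 where Parp2 had 0.524. The partner Ints9, which lies inside the interval but is no member, had ratios of 0.464, 0.480 and 0.539, beside 0.398, 0.337 and 0.488 for Ints6. The 10 other Integrator subunits measured had ratios from 0.844 to 1.18 in ESCs. Pphln1, a subunit of the HUSH silencing complex with Mphosph8, was the partner with the widest range, at 1.52, 0.605 and 0.606.

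**Figure D3:**
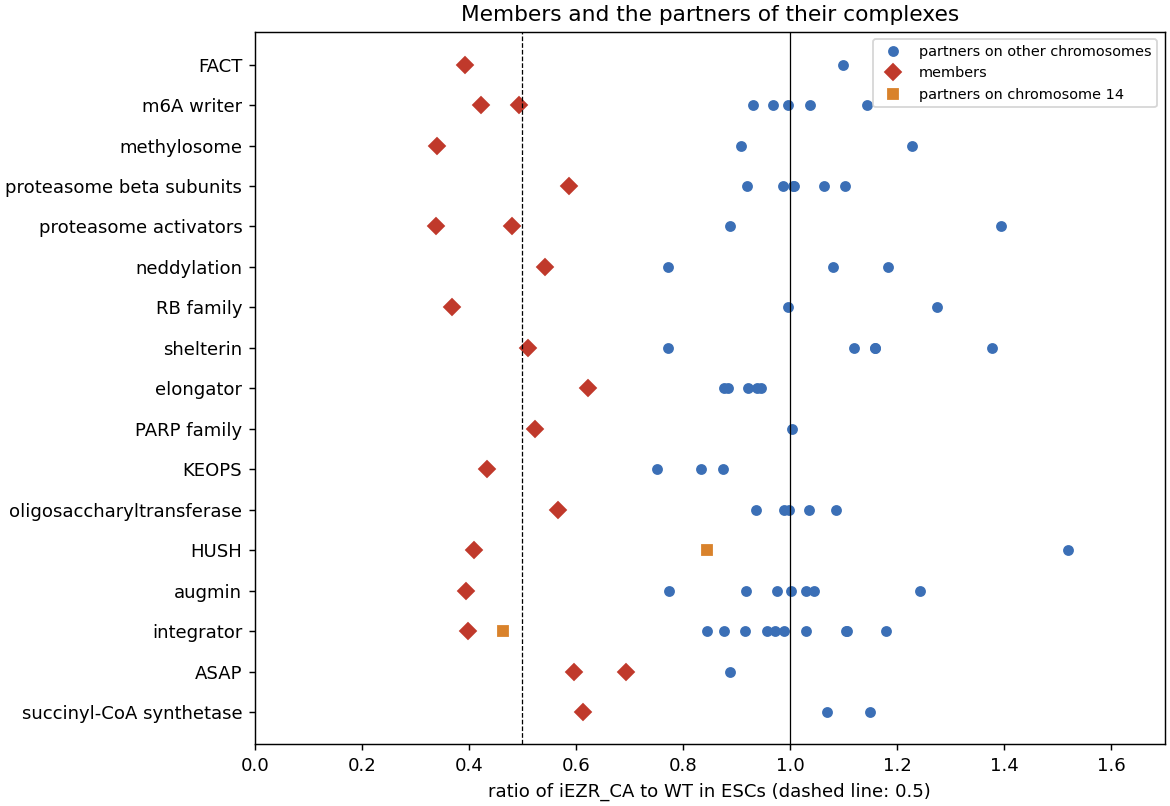
Ratio of iEZR_CA to WT in ESCs (x axis, linear) for members (red diamonds) and for the partners of their complexes on other chromosomes (blue) and on chromosome 14 (orange), by complex (y axis). Members lie between 0.338 and 0.693, and the 61 partners on other chromosomes between 0.752 and 1.52.

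Most members still changed with exit in both lines, as did most genes tested. In WT cells, 30 members rose and 16 fell by T24 and 33 rose and 20 fell by T48, against 31.8% and 33.6% of all genes rising and falling by T24 and 37.1% and 37.4% by T48 (edgeR, adjusted p below 0.05). In iEZR_CA cells, 27 rose and 15 fell by T24 and 30 rose and 21 fell by T48, against 27.1%, 28.9%, 35.2% and 35%. Of the 146 neighbours in the interval, 55 rose and 54 fell in WT by T24 and 55 and 61 by T48. In iEZR_CA cells 52 of these neighbours rose and 35 fell by T24, and 55 and 49 by T48. The median log2 change of the members was 0.08 and 0.17 in WT and 0.05 and 0.14 in iEZR_CA cells. Over all genes it lay between -0.01 and 0.01. Changes of more than 1 on the log2 scale were called for 4 and 7 members in WT and 3 and 4 in iEZR_CA cells. The share of all genes at that threshold was not counted, so nothing is read from these numbers. With spike-in scaling, which moved the median of all genes up by 0.14 and 0.27 in WT and by 0.15 and 0.25 in iEZR_CA cells, 24 members rose and 7 fell in WT by T24 and 37 and 9 by T48, and 23 and 3, then 33 and 7, did so in iEZR_CA cells. Under that scaling 46.7% and 64.8% of all genes were called in either direction in WT by T24 and T48, and 35.7% and 58.7% in iEZR_CA cells.

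At T24, 22 members rose in both lines, 10 fell in both, 11 were called in WT only, 7 in iEZR_CA only, 7 in neither and 3 in opposite directions. Over all genes tested the shares were 19.9%, 21.9%, 19.7%, 10.2%, 24.3% and 3.93%. At T48 the numbers were 24, 19, 8, 6, 1 and 2, against 27.1%, 28%, 14.6%, 10.2%, 15.2% and 4.9% of all genes. A call in 1 line and not in the other is no difference between the lines by itself, and the difference is given by the interaction below.

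By role, calls are given in the order WT T24, WT T48, iEZR_CA T24 and iEZR_CA T48, and no difference between roles was tested. Of the 12 chromatin and transcription genes, 9, 7, 8 and 9 rose and 2, 2, 3 and 2 fell. Of the 5 DNA repair and telomere genes, 4, 3, 2 and 2 rose and 1, 2, 0 and 1 fell. Of the 4 nuclear transport genes, 3, 3, 2 and 4 rose and none fell. Rises thus outnumbered falls in these groups in all 4 comparisons. The same held for the 12 genes of cytoskeleton, cilia, signalling and metabolism, of which 7, 9, 8 and 8 rose and 3, 3, 2 and 4 fell. Of the 8 RNA processing and tRNA modification genes, 5, 4, 3 and 3 rose and 2, 2, 2 and 3 fell. Of the 9 secretory, membrane, lysosomal and matrix genes, 1, 3, 3 and 2 rose and 5, 5, 3 and 5 fell. Of the 5 mitochondrial genes, 1, 2, 0 and 2 rose and 2, 3, 2 and 3 fell, and of the 5 proteasome, ubiquitin-like and chaperone genes 0, 2, 1 and 0 rose and 1, 3, 3 and 3 fell. Falls outnumbered rises in the mitochondrial and the proteasome groups in all 4 comparisons, and in the secretory group in 3, with equal numbers in iEZR_CA cells at T24. These directions rest on TMM scaling. With spike-in scaling the mitochondrial genes called by T48 were Bnip3l, Slc25a37 and Sucla2 in both lines. Bnip3l rose from 336.6 to 421 normalized counts per kilobase in WT and from 170 to 191 in iEZR_CA cells. Slc25a37 rose from 64.06 to 72.57 and from 39.56 to 45.44. Falls thus did not outnumber rises in that group by T48 with spike-in scaling.

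**Figure D4:**
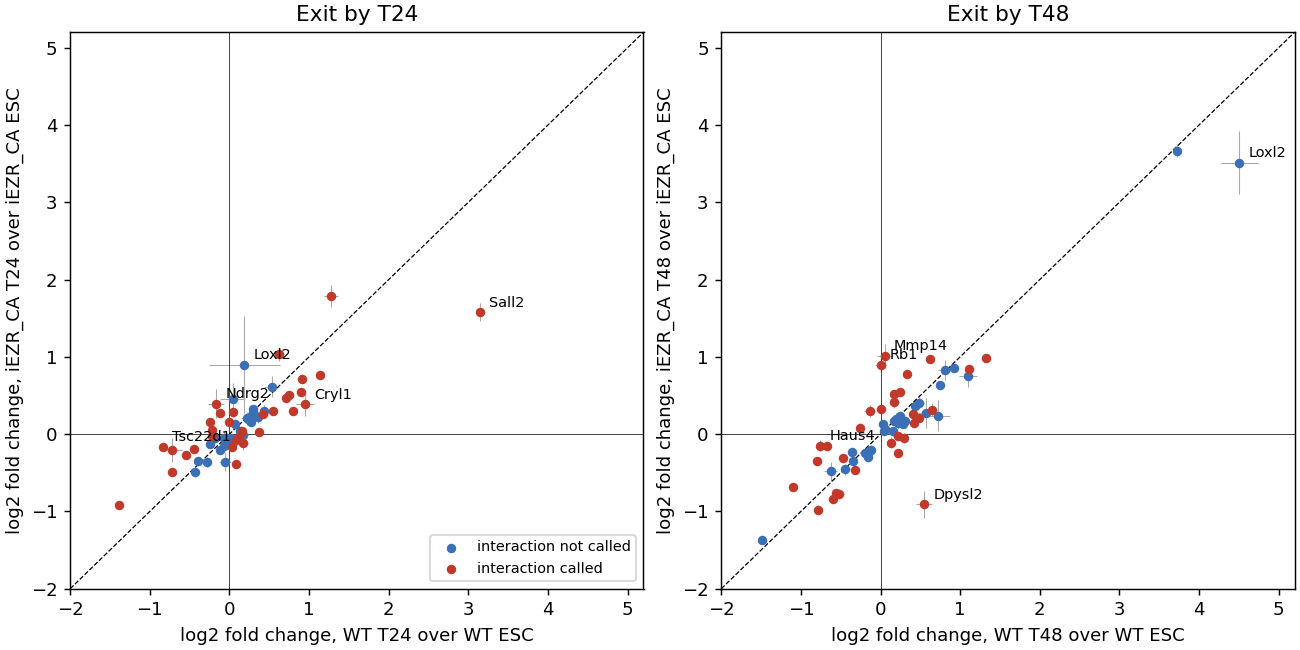
Log2 fold change of the 60 members on exit in iEZR_CA cells (y axis) against WT cells (x axis), by T24 and by T48, each relative to the ESCs of the same line, with bars of 1 standard error. Red points had a called interaction, the dashed line marks equal change, and the 5 members with the largest difference are named. Sall2 at T24 and Dpysl2 at T48 lie farthest below the line among the called interactions, at differences of -1.57 and -1.46.

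Sall2 (ENSMUSG00000049532, chromosome 14, 52311172 to 52328762), a zinc finger transcription factor, had the largest called rise of the members by T24 in WT and by T48 in iEZR_CA cells. It had 296, 313 and 279 normalized counts in WT ESCs, 2601, 2683 and 2718 at T24 and 3853, 3980 and 4067 at T48. In iEZR_CA cells it had 88.6, 80.5 and 65.9, then 250, 202 and 272, then 1072, 1012 and 942. The lines did not overlap at any stage, and the iEZR_CA T24 libraries were all below those of WT ESCs. By T24 the log2 change was 3.15 (standard error 0.056, adjusted p = 4.6e-44 by edgeR) in WT and 1.58 (0.112, adjusted p = 9.7e-18 by edgeR) in iEZR_CA cells, and the difference was -1.57 (0.143, adjusted p = 2.5e-13). By T48 the changes were 3.72 and 3.67, and the difference of -0.05 (standard error 0.129) had an adjusted p of 0.78 by edgeR. Its ratio was accordingly 0.266, 0.090 and 0.257.

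Other members that rose were Ajuba, a LIM protein of the Hippo pathway, Xpo4, Loxl2 and Mmp14. Ajuba went from 3830, 4026 and 3977 to 8883, 8799 and 8591 normalized counts in WT by T24 and from 2564, 2553 and 2505 to 4158, 4392 and 4363 in iEZR_CA cells. Xpo4 rose by 1.32 (standard error 0.034) in WT and by 0.98 (0.039) in iEZR_CA cells by T48 on the log2 scale. Loxl2 was at 2.25 to 12.8 normalized counts in WT ESCs and 147 to 172 in WT T48 cells, and at 0.839 to 7.01 and 28.8 to 36.2 in iEZR_CA cells. It was called higher by T48 in both lines, with log2 changes of 4.51 (0.234) and 3.51 (0.408), and the difference of -0.99 (0.722) was not called (adjusted p = 0.27 by edgeR).

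Ctsb (ENSMUSG00000021939, chromosome 14, 63122462 to 63145923), the lysosomal protease cathepsin B, fell furthest. It had 3516, 3478 and 3378 normalized counts in WT ESCs and 1310, 1310 and 1410 at T24, and 2204, 2082 and 2023 and then 1092, 1121 and 1130 in iEZR_CA cells. By T24 its log2 change was -1.38 (standard error 0.037) in WT and -0.92 (0.039) in iEZR_CA cells, a difference of 0.47 (0.054, adjusted p = 4.9e-11 by edgeR), so that its ratio stood at 0.606, 0.838 and 0.658. Psme1, a proteasome activator subunit, fell in both lines at both times, by -0.79 in WT and -0.98 in iEZR_CA cells at T48. Sucla2, a subunit of succinyl-CoA synthetase, changed by -0.72 in WT and -0.48 in iEZR_CA cells at T24, and Sugt1 by -0.80 and -0.35 at T48.

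**Figure D5:**
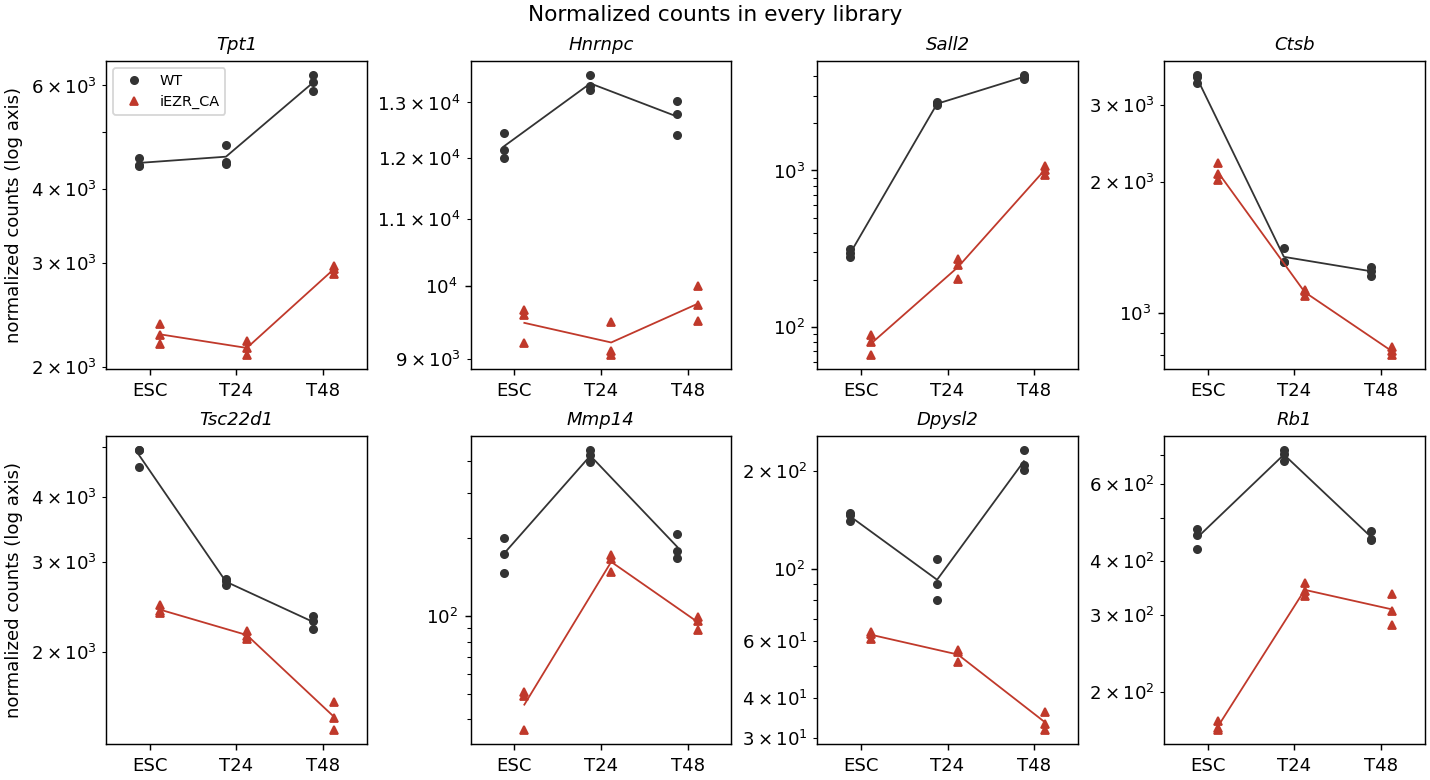
Normalized counts (y axis, log scale) of 8 members in each of the 18 libraries at ESC, T24 and T48 (x axis), with WT as black circles, iEZR_CA as red triangles and lines through the means of 3. WT points lie above iEZR_CA points at each stage, with the gap narrowest for Ctsb at T24 (ratio 0.838) and widest for Sall2 at T24 (ratio 0.09).

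The lines differed in their change on exit for 32 members by T24 (15 higher in iEZR_CA, 17 lower) and for 31 by T48 (15 higher, 16 lower), against 38.3% and 45.8% of all genes tested. For 19 members both interactions were called and for 16 neither was. The shares of all genes with both or neither called were not counted, so nothing is read from these 2 numbers. With libraries scaled to spike-in RNA only 2 interactions remained at T24, those of Sall2 and Tsc22d1, and 6 at T48, those of Dpysl2, Rb1, Mmp14, Haus4, Kif13b and Elp3, while 13.1% and 21% of all genes were called. Spike-in RNA made up 0.575 to 0.884% of all reads counted, including those not assigned to a gene. Its spread between libraries of a group enters that scaling.

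Tsc22d1 (ENSMUSG00000022010, chromosome 14, 76414961 to 76507765), a leucine zipper protein of TGF-beta signalling, started near 0.5 and left it. It had 4588, 4946 and 4948 normalized counts in WT ESCs and 2404, 2389 and 2470 in iEZR_CA ESCs, then 2771, 2706 and 2751 against 2156, 2202 and 2125 at T24. WT cells fell by 0.83 (standard error 0.034) and iEZR_CA cells by 0.16 (0.036) on the log2 scale, and the difference was 0.67 (0.049, adjusted p = 1.5e-18 by edgeR). Its ratio was 0.498, 0.790 and 0.661.

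Rb1, the retinoblastoma tumour suppressor, and Mmp14, a membrane-anchored matrix metalloproteinase, approached WT with time. Rb1 had 472, 458 and 425 normalized counts in WT ESCs and 448, 446 and 468 in WT T48 cells, and 172, 165 and 164 and then 308, 336 and 286 in iEZR_CA cells. By T48 its log2 change was 0.00 (0.064) in WT and 0.90 (0.083) in iEZR_CA cells, a difference of 0.90 (0.105, adjusted p = 3.6e-11 by edgeR), and its ratio was 0.369, 0.488 and 0.688. Rb1 shares 8.1% of its exon bases with Rcbtb2 on the opposite strand. Mmp14 had 200, 175 and 147 in WT ESCs and 51.0, 49.5 and 36.4 in iEZR_CA ESCs, and 169, 209 and 180 against 88.8, 96.2 and 99.7 at T48. Its ratio was 0.269, 0.384 and 0.524, with differences in the exit change of 0.51 (0.174, adjusted p = 0.015 by edgeR) by T24 and 0.96 (0.187, adjusted p = 1.5e-05 by edgeR) by T48. The T24 difference was no longer called without WT ESC replicate 1 (0.42) or iEZR_CA ESC replicate 3 (0.41). Haus4, a subunit of the augmin complex of the spindle, likewise went from 0.394 to 0.469 and 0.599, with a difference of 0.60 (0.089, adjusted p = 3.8e-08 by edgeR) by T48.

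Dpysl2 (ENSMUSG00000022048, chromosome 14, 66802864 to 66868688), a microtubule-binding protein of axon growth, was nearer to WT at T24 and farther from it at T48 than in ESCs. It had 141, 146 and 148 normalized counts in WT ESCs and 202, 209 and 233 in WT T48 cells, and 60.9, 63.7 and 63.1 and then 31.8, 33.1 and 36.0 in iEZR_CA cells. By T48 it rose by 0.55 (standard error 0.101) in WT and changed by -0.91 (0.174) in iEZR_CA cells, a difference of -1.46 (0.201, adjusted p = 6.2e-09 by edgeR). Its ratio was 0.429, 0.611 and 0.156.

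Members called in opposite directions were Elp3, Kif13b and Itm2b at T24 and Elp3 and Dpysl2 at T48. Elp3 (ENSMUSG00000022031, chromosome 14, 65530449 to 65593075), the catalytic subunit of Elongator, had 3731, 3952 and 3835 normalized counts in WT ESCs and 4654, 4482 and 4461 at T48, and 2458, 2373 and 2393 and then 1955, 2075 and 2051 in iEZR_CA cells. It rose by 0.22 (0.030) in WT and changed by -0.25 (0.033) in iEZR_CA cells, a difference of -0.47 (0.045, adjusted p = 2.7e-14 by edgeR). Kif13b changed by -0.24 in WT and 0.16 in iEZR_CA cells by T24, and Itm2b by -0.12 and 0.28.

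Smaller differences marked Xpo4 (-0.50, standard error 0.054, adjusted p = 2.6e-11 by edgeR) and Cryl1, a crystallin-related dehydrogenase (-0.57, 0.189, adjusted p = 0.013 by edgeR), at T24, and Hmbox1, a telomere-binding homeobox protein (-0.34, 0.083, adjusted p = 0.0004 by edgeR), at T48. Without iEZR_CA ESC replicate 2 or iEZR_CA T24 replicate 1 the Cryl1 difference was -0.45 and -0.46 and not called. Ndrg2, a differentiation-related member of the NDRG family, had 167, 147 and 157 normalized counts in WT ESCs and 32.1, 29.4 and 39.2 in iEZR_CA ESCs, and a difference of 0.56 (0.219, adjusted p = 0.035 by edgeR) at T24. That call was lost under 8 of the 18 omissions of a library, in which the difference was as low as 0.47.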

How the data were processed

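RNA was measured as polyA RNA sequencing in 18 libraries. The authors deposited raw counts of reads per Ensembl gene, with spike-in RNA, and per the labels and methods they trimmed with Trim Galore 0.6.5, aligned paired reads to GRCm38 (mm10) with GSNAP 2015-09-29 and counted with HTSeq on Ensembl release 81. The strand setting is not given in the sources used here. Groups were taken from the labels, and members and lists were chosen with earlier results of these data known. Counts were fitted with edgeR 4.0.16 in R 4.3.3 (TMM scaling, expression filter by group, robust quasi-likelihood test on all 18 libraries, Benjamini-Hochberg adjustment over 18469 genes, threshold 0.05). A ratio is the antilog of a fitted log2 difference. Normalized counts are counts divided by DESeq2 1.42.0 size factors. Gene positions and exons came from GENCODE M21 on the same assembly, which matched 53706 of 53801 identifiers. Reads not assigned to a gene were 21.3 to 24.3% of the total and stayed out of library sizes. They include reads of low alignment quality and reads ambiguous between genes, the latter 4.51 to 4.76% of the total. The script was tested on simulated data. Genes named in the text are the first and last 3 members, those nearest to a ratio of 0.5 in ESCs, those outside 0.4 to 0.6, and the 3 largest called changes in each direction of each exit contrast and interaction. Other members are named to account for the list.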

Additional observations from a re-analysis of the deposited data

Results flagged for a closer look

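The change on exit differed between the lines, by edgeR's interaction test, for the 3 called members with the largest difference in each direction at each time. By T24 the log2 change was larger in iEZR_CA than in WT cells for Tsc22d1 (0.67), Ndrg2 (0.56) and Mmp14 (0.51), and smaller for Sall2 (-1.57), Cryl1 (-0.57) and Xpo4 (-0.50). By T48 it was larger for Mmp14 (0.96), Rb1 (0.90) and Haus4 (0.60), and smaller for Dpysl2 (-1.46), Elp3 (-0.47) and Hmbox1 (-0.34). These are log2 differences over 3 libraries per group. They are made from the ratios that the choice of members used and were picked as the largest, so they are descriptions. With spike-in scaling the calls of Ndrg2, Mmp14, Cryl1 and Xpo4 at T24 and of Hmbox1 at T48 were lost. Those of Ndrg2, Mmp14 and Cryl1 at T24 were also lost under some omissions of a library.

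Outside the gene counts, reads set aside for low alignment quality made up a mean of 0.958% of an iEZR_CA library and 0.564% of a WT library, with ranges of 0.889 to 1.02% and 0.519 to 0.612% that did not overlap. Their part in the ratios of the members was not tested.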

How the results depend on the processing

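Of 648 values of the counts and medians under alternative settings 609 stayed within the spread between replicates or, for counts, within 1.5 times. Of 5393 values of single genes 5258 stayed the same, by that spread for ratios and by an unchanged call for exit changes and interactions. Most of these, 3868, came from leaving out 1 library. With spike-in scaling 96 single-gene values moved, 5 calls weakened and 115 values stayed the same. None reversed. The median log2 ratio of the members in ESCs, T24 and T48 was -0.93, -0.99 and -0.97 with spike-in scaling, which shifted all genes by 0.05, 0.07 and 0.04. It was -1.002 in ESCs and -0.98 at T48 with no filter on low counts, -0.97 in ESCs with at least 10 counts in every library or from mean normalized counts, and -0.97 in ESCs and -1.08 at T24 with only the groups compared. Leaving out 1 library gave -1.005 to -0.978 in ESCs, -1.08 to -1.05 at T24 and -1.052 to -0.998 at T48, with 1 to 2 members above 0.75 in ESCs (2 without WT ESC replicate 3). Spike-in scaling put 7 members above 0.75 at T24. A band of 0.45 to 0.55 held 22, 20 and 22 members, and a band of 0.35 to 0.65 kept each count within 1.5 times. With no share of all genes counted, partners called higher were 6, 8 and 12 and lower 2, 6 and 4 with spike-in scaling. With it, members lower on exit numbered 7 and 9 in WT and 3 and 7 in iEZR_CA cells by T24 and T48, and interactions 2 and 6. Asking also for a log2 change above 1 left 3 higher and 1 lower in WT by T24 and 5 and 2 by T48. In iEZR_CA cells it left 3 and 0 by T24 and 3 and 1 by T48, and no share of all genes was counted. The T24 interactions of Ndrg2, Mmp14, Cryl1 and Xpo4 and the T48 interaction of Hmbox1 were lost with spike-in scaling, and that of Ndrg2 also with no filter and by DESeq2's Wald test. Low members such as Loxl2, with fewer than 13 normalized counts in ESCs, have the least precise ratios. No paired analysis was possible because the labels carry no replicate numbers.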
